A study of Mus musculus with 2 samples.

Results

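The 5 genes described here, Tnfrsf4, Tnfrsf9, Tnfrsf18, Tnfrsf1b and Cd27, encode costimulatory receptors of the tumour necrosis factor (TNF) receptor family, and they were taken by name from the 28009 genes listed in both count matrices. All 5 had UMIs (unique molecular identifiers, so that copies of 1 RNA made by amplification count only once) in both libraries. All 5 passed the minimum of 50 UMIs in each main comparison of tissues, Foxp3 groups and Ccl5 groups below, but not in every finer breakdown, such as those within clusters. The cells were IL-10-producing (eGFP+) CD4+ T cells, Foxp3+ cells included, from spleen and small intestine of IL-10eGFP Foxp3mRFP double reporter mice aged 8 to 16 weeks, and 1 library was made per tissue. Anti-CD3 (clone 2C11), an antibody that activates T cells, had been injected into all animals on day 0 and again on day 2, at 15 µg each time, and the cells were taken 4 h after the last dose, so that the libraries share genotype and treatment and differ in tissue only as far as the labels say. The paper's methods describe EDTA, collagenase digestion and a Percoll gradient for intestinal cells and give no isolation steps for spleen, so handling may differ as well. Untreated cells were not analysed here, and how many animals were pooled for a library is not given in the sources used here. With a single library per tissue nothing was tested: values in brackets are exact 95% intervals of the UMI counts or cell counts, they cover counting error only, and a difference "beyond counting error" is one whose interval leaves out 0 on the log2 scale.

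These receptors sit on the T cell surface, bind trimeric ligands on antigen-presenting and other cells, and recruit TRAF adaptor proteins to their tails, which leads to NF-kB signalling and to survival and proliferation of the T cell. Tnfrsf4 encodes OX40 and Tnfrsf9 encodes 4-1BB (CD137), both of which are induced by T cell activation. Tnfrsf18 encodes GITR, which regulatory T cells carry at rest and conventional T cells gain when activated, Tnfrsf1b encodes TNFR2, a receptor for TNF that is prominent on activated regulatory T cells, and Cd27 encodes the receptor for CD70, which naive T cells already carry.

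After quality filters and removal of cells in G2/M, 1468 splenic cells (9151420 UMIs, median 5398 per cell) and 1277 intestinal cells (5032225 UMIs, median 3696 per cell) remained, and no barcode was shared between the libraries. Levels are given in CPM, the UMIs of a gene per 1000000 UMIs of a group of cells, so a floor of 3 UMIs stood at 0.328 CPM in spleen and 0.596 CPM in small intestine. Shares of cells were taken after thinning each cell to 2000 UMIs, which kept 1445 splenic and 1170 intestinal cells. The T cell genes Cd3d, Cd3e and Cd3g had a UMI in 90.1% to 99.5% of splenic and 92.6% to 98.3% of intestinal cells, and Cd4 in 67.1% and 73.1%. Markers of B cells, plasma cells, myeloid cells and dendritic cells summed to at most 14.1 CPM per list. Cd8a and Cd8b1, which mark CD8 T cells, were found together in 121 intestinal cells and in 0 splenic cells. No cell type known to lack these receptors was present in either library, so the lowest share among clusters of cells is given below as an upper bound on what free RNA could add.

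Except for Cd27, on chromosome 6, the genes lie on chromosome 4 of the mouse genome (build GRCm38, gene spans of the annotation). Tnfrsf4 (ENSMUSG00000029075) spans chr4:156013843-156016612 on the plus strand and is followed after 9551 bases by Tnfrsf18 (ENSMUSG00000041954) at chr4:156026164-156028895, also on the plus strand. Tnfrsf9 (ENSMUSG00000028965) spans chr4:150914562-150946102 on the plus strand, Tnfrsf1b (ENSMUSG00000028599) chr4:145213463-145246870 on the minus strand and Cd27 (ENSMUSG00000030336) chr6:125232622-125237010 on the minus strand. Camta1 overlaps Tnfrsf9, the antisense gene Gm16008 overlaps Tnfrsf18 and Vamp1 overlaps Cd27, each on the opposite strand. These 3 genes held 318, 20 and 53 UMIs in spleen and 108, 12 and 53 UMIs in small intestine, and whether the counting used strand is not stated.

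Upstream sequences are shown for 3 of the receptors, because Tnfrsf9 and Tnfrsf1b had the largest ratios between splenic cells with and without Foxp3, and Tnfrsf18 was close to equal in the tissues while its neighbour Tnfrsf4 was not. They come from RefSeq (GRCm38.p6), whose table held windows for 5 of the 5 receptors. They run 5′ to 3′ up to a RefSeq start, or up to an annotated exon where one overlapped the window. The Tnfrsf9 window lies inside the annotated gene span given above, downstream of the start of that span. Capitals mark GGAAA on either strand, the core that NFAT factors bind. The windows are chr4:150919905-150920154 (plus strand) for Tnfrsf9, chr4:156026072-156026163 (plus strand) for Tnfrsf18 and chr4:145246871-145247120 (minus strand) for Tnfrsf1b.
Tnfrsf9: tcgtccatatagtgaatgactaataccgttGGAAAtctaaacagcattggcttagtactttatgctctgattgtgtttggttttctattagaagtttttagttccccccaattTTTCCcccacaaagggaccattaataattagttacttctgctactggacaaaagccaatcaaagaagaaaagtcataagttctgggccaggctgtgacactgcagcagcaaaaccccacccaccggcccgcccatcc
Tnfrsf18: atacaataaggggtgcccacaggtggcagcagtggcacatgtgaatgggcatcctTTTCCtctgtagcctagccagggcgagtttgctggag
Tnfrsf1b: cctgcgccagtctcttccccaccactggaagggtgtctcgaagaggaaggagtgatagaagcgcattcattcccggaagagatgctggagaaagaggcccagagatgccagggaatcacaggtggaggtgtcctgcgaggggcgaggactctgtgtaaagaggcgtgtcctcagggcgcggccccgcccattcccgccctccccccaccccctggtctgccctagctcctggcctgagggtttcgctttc
The GGAAA core began 220 and 137 bases before this Tnfrsf9 start, 180 and 163 bases before a second RefSeq start of Tnfrsf9 (chr4:150927999, not shown) and 195 bases before the RefSeq start of Tnfrsf18, was found once in the Cd27 window, 52 bases before its start, and was not found in the 250 bases shown for Tnfrsf1b. Such a match was common, since 55.6% of 32851 windows of 250 bases held one. The NF-kB consensus (3.90% of windows), the AP-1 site TGANTCA (6.75%) and TATAAA (12.4%) were searched on both strands, overlaps allowed. None of these letters occurred in the bases searched. Those bases numbered only 92 for Tnfrsf18, 169 for the second Tnfrsf9 start and 0 for Tnfrsf4. The shares of windows are for 250 bases and are no like measure for these shorter stretches. For Tnfrsf4 nothing is shown, since its window lies within an annotated exon of the upstream gene Sdf4. A match is a description of letters only.

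The first comparison was between the tissues. Tnfrsf4, Tnfrsf9 and Cd27 were higher in spleen, and Tnfrsf18 and Tnfrsf1b were close to equal. Tnfrsf4 stood at 2655 CPM (2622 to 2689) in spleen and 977 CPM (950 to 1004) in small intestine, with a UMI in 82.6% and 61.5% of cells at equal depth. Tnfrsf9 stood at 292 CPM (281 to 304) and 137 CPM (127 to 147), in 24.5% and 14.2% of cells. Cd27 stood at 419 CPM (406 to 433) and 214 CPM (201 to 227), in 53.2% and 31.4% of cells. For these 3 receptors both the level and the share of positive cells were higher in spleen, and the log2 ratios were 1.44 (1.40 to 1.49), 1.10 (0.98 to 1.22) and 0.97 (0.87 to 1.07).

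Tnfrsf18 had 749 CPM (731 to 767) in spleen and 801 CPM (777 to 827) in small intestine, a log2 ratio of -0.10 (-0.15 to -0.04), and was found in 66.1% and 72.0% of cells. Tnfrsf1b had 123 CPM (115 to 130) and 133 CPM (123 to 144), a log2 ratio of -0.12 (-0.26 to 0.02), in 18.6% and 22.2% of cells. For GITR the small difference was lost with all barcodes (-0.00689, -0.06 to 0.05), with G2/M cells kept (-0.04, -0.10 to 0.01) and at 2000 UMIs per cell (-0.0104, -0.10 to 0.08). It was larger without cells that had both CD8 genes, as given at the end. For TNFR2 the interval held 0, except at 2000 UMIs per cell (-0.23, -0.46 to -0.00414). With pooled size factors, which give no interval, the TNFR2 ratio lay further below 0, as also given at the end. Of the 5 receptors, 2 were at least 2-fold higher in spleen and 0 at least 2-fold lower, where 13.6% of 9032 genes with at least 50 UMIs were higher by that much and 10.4% lower. Cd27 lay close to 2-fold and passed it with all barcodes (1.01), G2/M cells kept (1.01), every cell weighted the same (1.003) and 2000 UMIs per cell (1.01). The splenic library was 1.46 times deeper per cell, and whether tissue, handling of the cells or library sets these differences cannot be told apart.

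Cells were next divided into those with at least 1 Foxp3 UMI (280 splenic, 28 intestinal), and, among cells without one, into Ccl5-high cells (at least 2000 CPM of Ccl5, the chemokine RANTES: 178 splenic, 1111 intestinal) and Ccl5-low cells (1010 splenic, 138 intestinal). Foxp3, the transcription factor of regulatory T cells, is sparse in such data, so a cell without a Foxp3 UMI may still have been a Foxp3+ cell. The cells with a Foxp3 UMI were deeper than those without one (median 7665.5 against 5047.5 UMIs in spleen, 4708.5 against 3687 in small intestine).

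**Figure D1:**
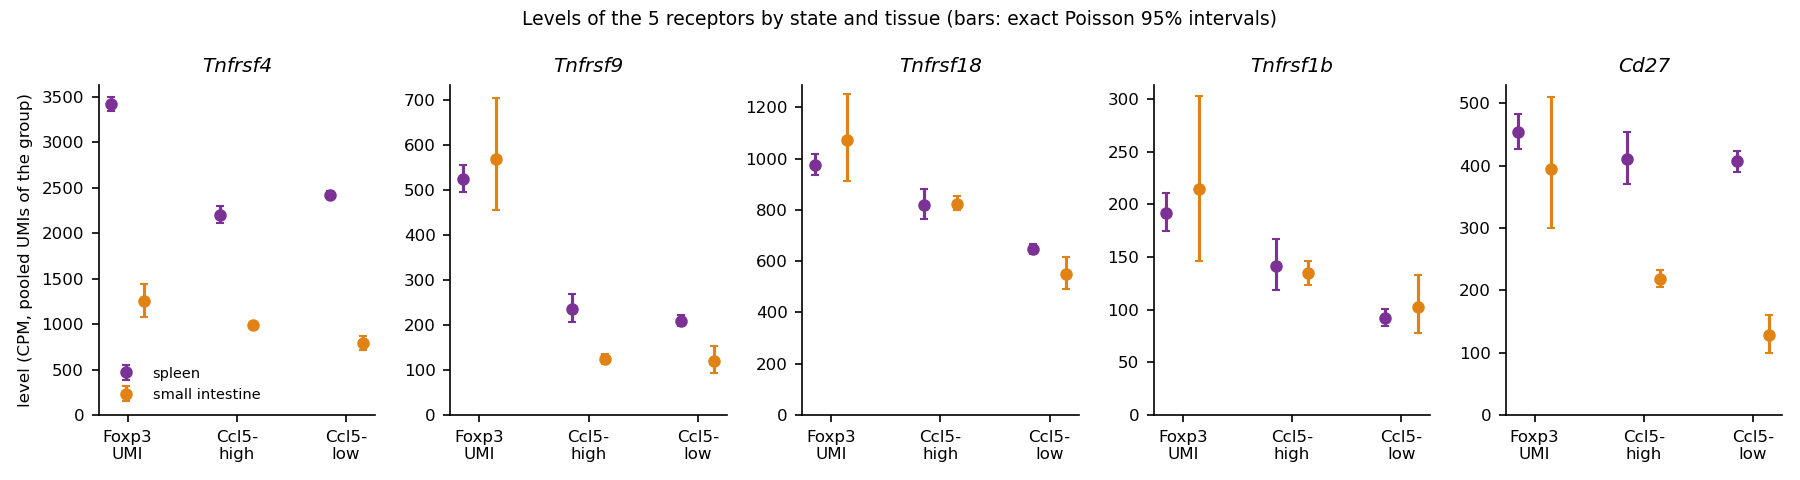
Level of each receptor in CPM (y axes, linear from 0) in cells with a Foxp3 UMI, Ccl5-high cells and Ccl5-low cells of spleen (purple) and small intestine (orange), with points for pooled UMIs and bars for exact Poisson 95% intervals. Tnfrsf4 stood higher in all 3 splenic groups, from 2203 to 3423 CPM, than in any intestinal group, from 793 to 1252 CPM, whereas Tnfrsf9 was highest in the cells with a Foxp3 UMI of either tissue.

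The tissue difference of OX40 was present within each state. No state was made up alike in the tissues. Intestinal Ccl5-high cells included cells with both CD8 genes, and splenic ones did not. Intestinal Ccl5-low cells came mostly from graph cluster 4, led by Il17a, Tmem176b and Tmem176a, where 15.5% of 174 cells were Ccl5-high. In every other intestinal cluster at least 97.6% were. Cluster 4 also held 20 of the intestinal cells with a Foxp3 UMI. Splenic Ccl5-low cells were spread over several clusters. Over all cells the Tnfrsf4 ratio was smaller without cells that had both CD8 genes, as given at the end. Tnfrsf4 was higher in spleen by 1.45 on the log2 scale (1.24 to 1.67) among cells with a Foxp3 UMI, by 1.15 (1.08 to 1.23) among Ccl5-high cells and by 1.61 (1.48 to 1.75) among Ccl5-low cells. Ordered by level, its 6 groups ran from splenic cells with a Foxp3 UMI (3423 CPM) through splenic Ccl5-low (2425 CPM) and Ccl5-high cells (2203 CPM) to intestinal cells with a Foxp3 UMI (1252 CPM), intestinal Ccl5-high (991 CPM) and Ccl5-low cells (793 CPM), and every neighbour in this order differed beyond counting error in CPM. The order of the splenic Ccl5-low and Ccl5-high cells depended on the scaling, as given below. The place of the intestinal cells with a Foxp3 UMI rests on few of those cells. The 22 of them with 1 Foxp3 UMI stood at 689 CPM (543 to 862), below the pooled level of either intestinal Ccl5 group.

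Tnfrsf9 was higher in spleen among Ccl5-high cells (236 against 124 CPM, log2 ratio 0.93, 0.70 to 1.16) and Ccl5-low cells (210 against 121 CPM, 0.80, 0.44 to 1.17). Among cells with a Foxp3 UMI it had 525 CPM in spleen and 569 CPM in small intestine, a log2 ratio of -0.12 (-0.43 to 0.22). Its order of 6 groups had both Foxp3 groups first, then both splenic Ccl5 groups and then both intestinal ones, and within each pair the levels did not differ beyond counting error.

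Cd27 was likewise higher in spleen in Ccl5-high cells (411 against 219 CPM, 0.91, 0.74 to 1.08) and in Ccl5-low cells (407 against 128 CPM, 1.67, 1.33 to 2.03), with 454 and 395 CPM in cells with a Foxp3 UMI (0.20, -0.18 to 0.61). Its 3 splenic groups and the intestinal cells with a Foxp3 UMI came first, above intestinal Ccl5-high and then Ccl5-low cells. Among those first groups no neighbours in the order differed beyond counting error. Groups further apart could differ: the intervals of splenic cells with a Foxp3 UMI (427 to 483 CPM) and splenic Ccl5-low cells (391 to 423 CPM) did not overlap. Tnfrsf18 and Tnfrsf1b stayed within 0.23 of equality on the log2 scale in each state, and only the Ccl5-low ratio of Tnfrsf18 (0.23, 0.06 to 0.40) left out 0.

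At least 2-fold higher in spleen were 1 of the 5 receptors in Ccl5-high cells (background 7.37% of genes), 2 of 5 in Ccl5-low cells (background 10%) and 1 of 5 in cells with a Foxp3 UMI (background 17.7%), and 0 of 5 were lower by that much in any state (backgrounds 9.62%, 10.6% and 8.68%). The intestinal Foxp3 group held only 149331 UMIs, and its wide intervals limit the last comparison.

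The second comparison asked how each receptor differed with Foxp3. In spleen all 5 were higher in the cells with a Foxp3 UMI, and 4-1BB by the most. Tnfrsf9 had 525 CPM (496 to 555) with and 213 CPM without a Foxp3 UMI, a log2 ratio of 1.30 (1.19 to 1.41) that exceeded those of 99.5% of the 8117 genes with at least 50 UMIs, and it was found in 48.0% and 18.9% of cells. Tnfrsf1b followed with 192 CPM (174 to 211) and 99.0 CPM, a log2 ratio of 0.96 (0.78 to 1.13), in 27.2% and 16.6% of cells. GITR and OX40 were higher by less: Tnfrsf18 had 977 and 671 CPM (0.54, 0.47 to 0.61) and Tnfrsf4 3423 and 2394 CPM (0.52, 0.48 to 0.55).

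OX40 was nonetheless present in nearly all of the splenic cells with a Foxp3 UMI, 97.1% against 79.2% of the others at 2000 UMIs, and GITR in 78.5% against 63.1%. Cd27 differed least, with 454 and 407 CPM (0.16, 0.05 to 0.26), in 61.3% and 51.3% of cells, shares that were 52.7% and 51.2% with another random thinning. At least 2-fold higher was 1 of the 5 receptors, where 1.47% of genes were higher and 2.53% lower by that much. Tnfrsf1b also passed 2-fold with pooled size factors (1.05), every cell weighted the same (1.07), at least 2 Foxp3 UMIs (1.03) and against Ccl5-low cells alone (1.06). Cells with a Foxp3 UMI made up 19.1% of splenic cells and held 25.4% of all UMIs, but 45.6% of the Tnfrsf9 UMIs, 39.8% of those of Tnfrsf1b, 33.1% of Tnfrsf18, 32.7% of Tnfrsf4 and 27.5% of Cd27.

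By the number of Foxp3 UMIs in a splenic cell (0, 1, 2 and at least 3, in 1188, 147, 94 and 39 cells), Tnfrsf9 stood at 213, 454, 617 and 561 CPM and Tnfrsf4 at 2394, 3269, 3553 and 3645 CPM. The step from 0 to 1 Foxp3 UMI was the largest for both. Depth was also higher in these groups, from a median of 5047.5 over 7376 and 7908 to 8436 UMIs per cell, and the part of depth in the order was not tested.

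In small intestine, where 28 cells had a Foxp3 UMI, the pooled levels of all 5 receptors were again higher. Tnfrsf9 had 569 CPM (455 to 704) with and 123 CPM without a Foxp3 UMI, a log2 ratio of 2.20 (1.86 to 2.53), and it was found in 37.0% and 13.6% of cells. Cd27 had 395 and 208 CPM (0.93, 0.52 to 1.30), Tnfrsf1b 214 and 131 CPM (0.71, 0.15 to 1.22), Tnfrsf18 1071 and 793 CPM (0.43, 0.20 to 0.66) and Tnfrsf4 1252 and 968 CPM (0.37, 0.15 to 0.58). The shares of cells did not follow for OX40 and GITR: Tnfrsf4 was found in 59.3% (38.8% to 77.6%) of the cells with a Foxp3 UMI and 61.5% of the others, and Tnfrsf18 in 66.7% (46.0% to 83.5%) and 72.1%. With another random thinning these shares were 51.9% and 61.6% for Tnfrsf4 and 77.8% and 73.1% for Tnfrsf18. At least 2-fold higher was again 1 of 5 receptors (background 8.05% higher, 13.2% lower), and Cd27 also passed 2-fold in 5 alternatives, among them 1.01 with G2/M cells kept and 1.63 against Ccl5-low cells alone. Tnfrsf1b passed it at 2000 UMIs per cell (1.29) and against Ccl5-low cells alone (1.06). The intestinal Tnfrsf9 value rests on 85 UMIs, of which 27 came from 3 cells with 2 Foxp3 UMIs and 15 from 3 cells with 3 or more. Of the 187 Tnfrsf4 UMIs, 59 and 52 came from the same cells. In the 22 cells with 1 Foxp3 UMI Tnfrsf4 stood at 689 CPM (543 to 862), below the cells without one. Tnfrsf18 stood there at 834 CPM (672 to 1023), while Tnfrsf9, Tnfrsf1b and Cd27 stayed higher, at 390, 218 and 390 CPM.

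Cells were then compared within clusters of the neighbour graph, which were made without the 5 receptors, the other TNF receptor and TNF ligand genes, Foxp3 and Ccl5. Splenic cluster 2, in which 55.6% of 232 cells had a Foxp3 UMI and which had Foxp3, Ikzf2 and Il2ra among its leading genes (regulatory T-like), had high levels of the receptors whether a Foxp3 UMI was found or not. Tnfrsf4 stood there at 4279 CPM in 129 cells with and 4200 CPM in 103 cells without a Foxp3 UMI (log2 ratio 0.03), and Tnfrsf1b at 218 and 220 CPM. Tnfrsf9 differed more, with 906 and 746 CPM (0.28, 0.12 to 0.45), and Tnfrsf18 had 1372 and 1246 CPM (0.14, 0.01 to 0.27). Cd27 did not differ beyond counting error, at 583 CPM with and 643 CPM without a Foxp3 UMI (-0.14, -0.33 to 0.05).

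In splenic cluster 4, led by the histone gene Hist1h2ap and the nucleotide synthesis gene Rrm2, 91 cells had a Foxp3 UMI and 119 had none, and Tnfrsf9 was at 217 and 219 CPM (-0.01). In some clusters where few cells had a Foxp3 UMI the gap was wide. Tnfrsf9 was at 1099 CPM in 10 cells with and 308 CPM in 132 cells without one in splenic cluster 7 (1.83). It was at 473 and 136 CPM in 19 and 172 cells of splenic cluster 5 (1.80), and at 643 and 117 CPM in 20 and 154 cells of intestinal cluster 4 (2.45, 1.94 to 2.96). In others the interval held 0. Tnfrsf9 was at 80.2 and 51.1 CPM in 17 and 198 cells of splenic cluster 3 (0.65, -1.04 to 1.98, on 5 UMIs in the 17 cells). In splenic cluster 1 it was at 165 and 79.0 CPM in 9 and 319 cells (1.06, -0.04 to 1.99). The breakdowns by cluster and by number of Foxp3 UMIs were chosen after first results had been seen.

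**Figure D2:**
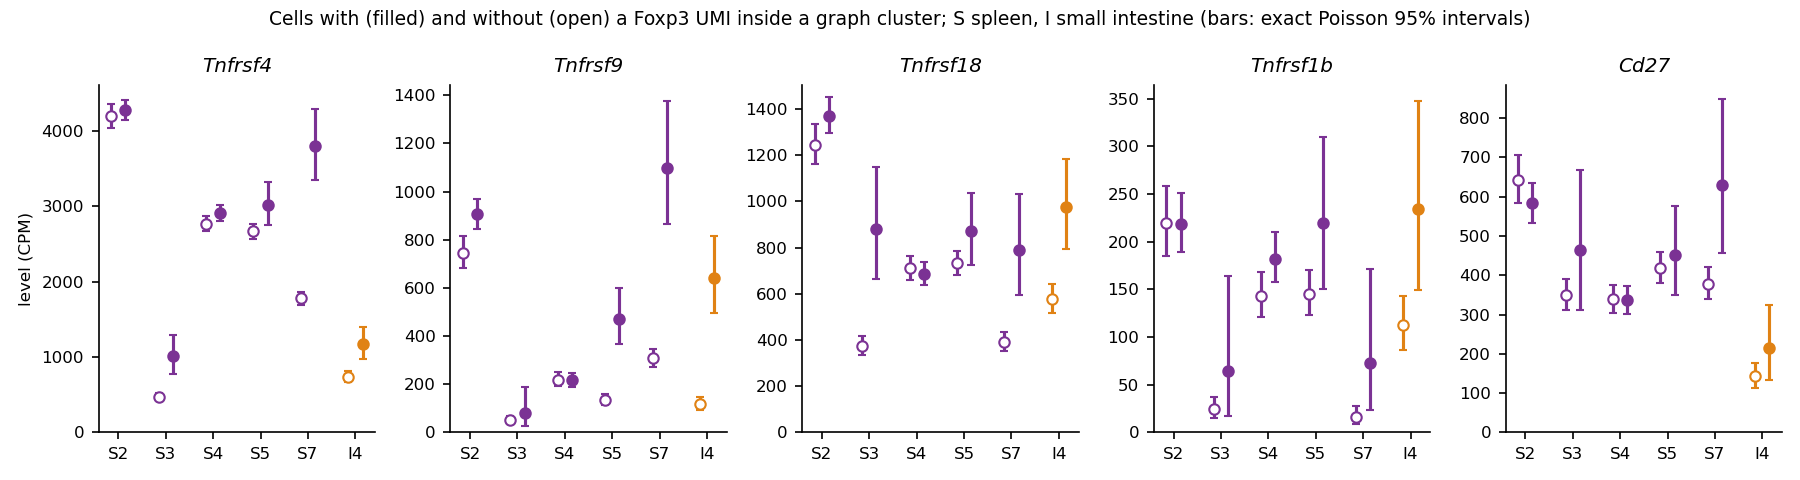
Level of each receptor in CPM (y axes, linear from 0) in cells with (filled points) and without (open points) a Foxp3 UMI inside 5 splenic clusters (S, purple) and intestinal cluster 4 (I4, orange), with exact Poisson 95% intervals. In S2 the open and filled points of Tnfrsf4 lie at 4200 and 4279 CPM, whereas the Tnfrsf9 points of S7 lie at 308 and 1099 CPM.

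The third comparison was between Ccl5-high and Ccl5-low cells without a Foxp3 UMI. In small intestine most of these Ccl5-low cells belonged to cluster 4, led by Il17a, Tmem176b and Tmem176a. In neither tissue did any of the 5 receptors differ 2-fold, 0 of 5 in each direction, where 2.42% of genes were higher and 4.27% lower by that much in spleen and 5% higher and 5.82% lower in small intestine. With the cut at 500 CPM, which left 29 intestinal cells in the low group, Tnfrsf9 (2.23) and Cd27 (1.10) passed 2-fold there, as did Tnfrsf18 (1.04) when cells between 500 and 2000 CPM were left out. Tnfrsf18 was higher in Ccl5-high cells of both tissues, at 821 against 647 CPM in spleen (log2 ratio 0.34, 0.23 to 0.45) and 825 against 551 CPM in small intestine (0.58, 0.41 to 0.75). Tnfrsf1b had 141 and 92.1 CPM in spleen (0.62, 0.34 to 0.89) and 135 and 103 CPM in small intestine (0.39), and the last interval reached 0.

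Cd27 did not differ beyond counting error between the splenic groups (411 and 407 CPM, 0.01, -0.14 to 0.17) and was higher in intestinal Ccl5-high cells (219 against 128 CPM, 0.78, 0.43 to 1.14), where the interval reached 0 at 2000 UMIs per cell (0.39, -0.07 to 0.88). Tnfrsf9 did not differ beyond counting error in spleen (236 and 210 CPM, 0.17, -0.04 to 0.38) or small intestine (124 and 121 CPM, 0.04, -0.33 to 0.43), where the ratio turned to -0.67 (-0.95 to -0.39) when cells with a Foxp3 UMI were kept in both groups. Tnfrsf4 was lower in splenic Ccl5-high cells (2203 against 2425 CPM, -0.14, -0.21 to -0.07) and higher in intestinal ones (991 against 793 CPM, 0.32, 0.18 to 0.47). The splenic Tnfrsf4 value turned to 0.0207 with pooled size factors and was -0.00337 with every cell weighted the same, -0.0197 at 2000 UMIs per cell and -0.0387 with the cut at 500 CPM. The intestinal value was 0.087 (-0.04 to 0.21) with the cut at 5000 CPM.

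Finer steps of Ccl5 were also counted. Of the 138 intestinal Ccl5-low cells, 29 had under 500 CPM of Ccl5 and 109 had 500 to 2000 CPM, and Tnfrsf9 stood at 26.8 CPM (5.53 to 78.3, on 3 UMIs) in the former and 144 CPM (111 to 183) in the latter. Above the cut, Tnfrsf9 was lower at each step, from 219 CPM (2000 to 10000 CPM of Ccl5, 66 cells) over 150 CPM (10000 to 50000 CPM, 407 cells) to 93.2 CPM (638 cells above). With the cut at 500 CPM its log2 ratio of 2.23 (0.68 to 4.51) rests on these 3 UMIs. Tnfrsf4 likewise was highest in the middle step, at 1552 CPM, against 625 CPM in the lowest and 921 CPM in the highest step. Cd27 was higher at each of the same 5 steps in small intestine, from 98.3 over 135, 171 and 205 to 234 CPM. Intervals of neighbouring steps overlapped, while those of the lowest (49.1 to 176 CPM, on 11 UMIs) and highest step (215 to 255 CPM) did not. Tnfrsf1b went from 98.3 CPM (49.1 to 176, on 11 UMIs) to 139 CPM (124 to 155), and these intervals overlapped.

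In spleen, where 947 of the 1188 cells without a Foxp3 UMI had under 500 CPM of Ccl5, Tnfrsf9 was at 45.2 CPM in the 37 cells above 50000 CPM and between 200 and 300 CPM in the other 4 steps. These steps, too, were added after first results had been seen. Within 2-fold of the 2000 CPM cut lay 69 splenic cells (4.70%) and 79 intestinal cells (6.19%), so the classes are ranges of a continuous level. Compared directly, splenic cells with a Foxp3 UMI exceeded splenic Ccl5-high cells in Tnfrsf9 by 1.15 (0.95 to 1.37), in Tnfrsf4 by 0.64 (0.57 to 0.71), in Tnfrsf1b by 0.44 (0.16 to 0.73) and in Tnfrsf18 by 0.25 (0.13 to 0.37) on the log2 scale, and in Cd27 by 0.15 (-0.02 to 0.32), which made 1 of 5 at least 2-fold higher (background 5.17%) and 0 lower (3.02%).

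**Figure D3:**
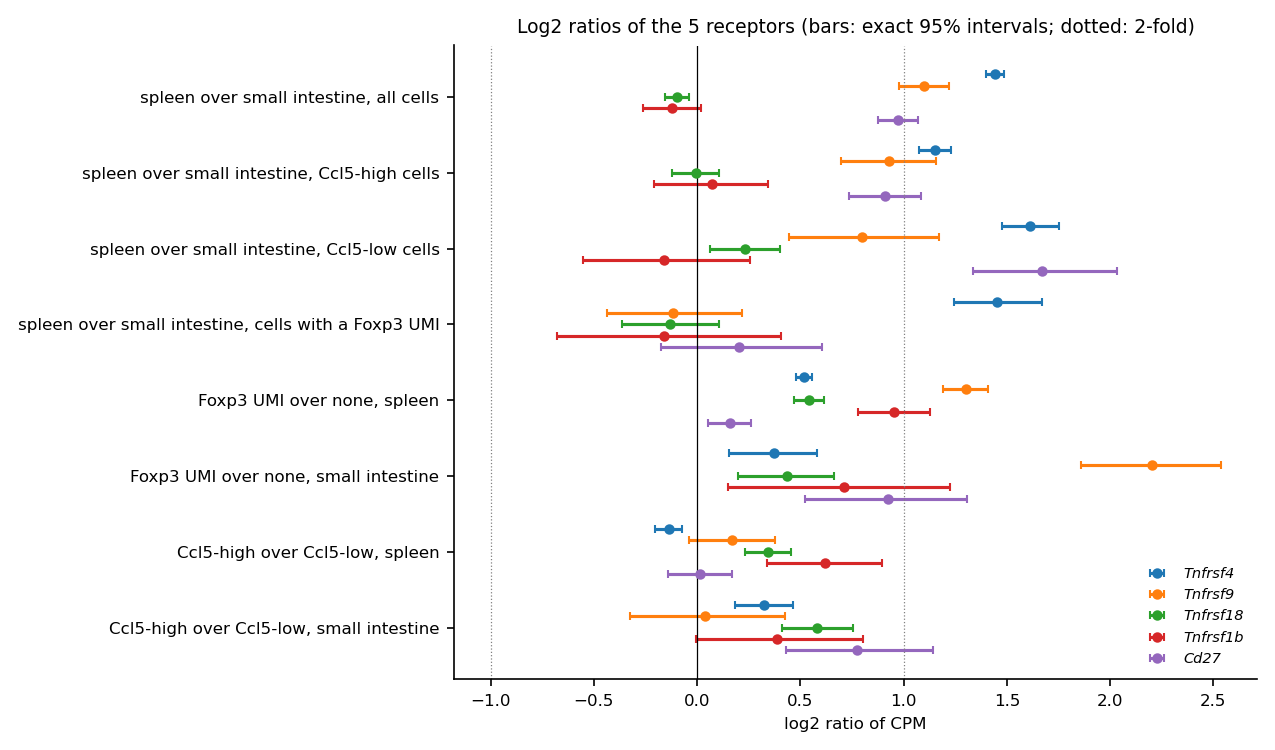
Log2 ratio of CPM (x axis) of each receptor in 8 comparisons (y axis), with points coloured by gene, exact 95% intervals as bars and dotted lines at 2-fold. Tnfrsf9 lies at 1.30 and 2.20 for cells with a Foxp3 UMI, and none of the 5 points lies beyond 2-fold for Ccl5-high over Ccl5-low cells in either tissue.

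The receptors also differed in how they were spread over the 14 graph clusters. In spleen each of the 5 was highest in the regulatory T-like cluster 2, where Tnfrsf4 stood at 4246 CPM (4144 to 4349; found in 231 of 231 cells at 2000 UMIs), Tnfrsf18 at 1318 CPM (87.9% of cells), Tnfrsf9 at 838 CPM (58.9%), Cd27 at 608 CPM (67.5%) and Tnfrsf1b at 219 CPM (32.9%). Splenic cluster 3 was led by Pik3ip1, Ccr7 and Txnip and was naive T-like by Ccr7, Lef1 and S1pr1. In it Tnfrsf4 stood at 511 CPM (43.5% of cells), Tnfrsf18 at 410 CPM (48.3%), Tnfrsf9 at 53.0 CPM (5.31%) and Tnfrsf1b at 27.1 CPM (3.86%), the lowest or next to lowest values of spleen.

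Cd27 in cluster 3 was also next to lowest, at 357 CPM (45.9% of cells), but the 6 splenic clusters other than cluster 2 lay between 337 and 422 CPM with no neighbours apart beyond counting error. The intervals of the highest and lowest of these, cluster 5 (386 to 461 CPM) and cluster 4 (313 to 363 CPM), did not overlap. The highest cluster of Cd27 exceeded its lowest 1.80-fold in spleen and 1.85-fold in small intestine. The same ratio was 15.8 for Tnfrsf9, 10.7 for Tnfrsf1b, 8.31 for Tnfrsf4 and 3.21 for Tnfrsf18 in spleen. Splenic cluster 7, led by Bach2, Atad3a and Itm2a, was second for Tnfrsf9 (364 CPM, 36.9% of cells) but lowest for Tnfrsf1b (20.5 CPM).

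In small intestine Tnfrsf4 varied most, 12.7-fold, from 1520.1 CPM in cluster 1 (led by Ccl4, Ecm1 and Ifitm2) and 1496 CPM in cluster 5 (Sv2c, Ramp3 and Emb), which did not differ, to 306 CPM in cluster 3 and 120 CPM in cluster 6 (17.99% of cells). Cluster 6 was led by Cd8b1, Cd8a and Car2, and 107 of its 141 cells had both CD8 genes. Tnfrsf18 in that cluster stood at 513 CPM, and at 399 to 1073 CPM over all intestinal clusters. Tnfrsf9 ranged from 35.2 to 219 CPM, and Tnfrsf1b only from 102 to 154 CPM with no neighbours apart beyond counting error. The intervals of its highest cluster 1 (132.2 to 177.5 CPM) and lowest cluster 3 (77.5 to 131.9 CPM) just failed to overlap. The lowest shares of cells among the clusters bound what free RNA could add. In small intestine they were 8.06% for Tnfrsf9, 17.99% for Tnfrsf4, 18.05% for Tnfrsf1b, 24.2% for Cd27 and 54.1% for Tnfrsf18. In spleen they were 5.31% for Tnfrsf9, 3.86% for Tnfrsf1b, 43.5% for Tnfrsf4, 45.9% for Cd27 and 48.3% for Tnfrsf18. For intestinal Tnfrsf1b the bound lay close to the share of all intestinal cells (22.2%).

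**Figure D4:**
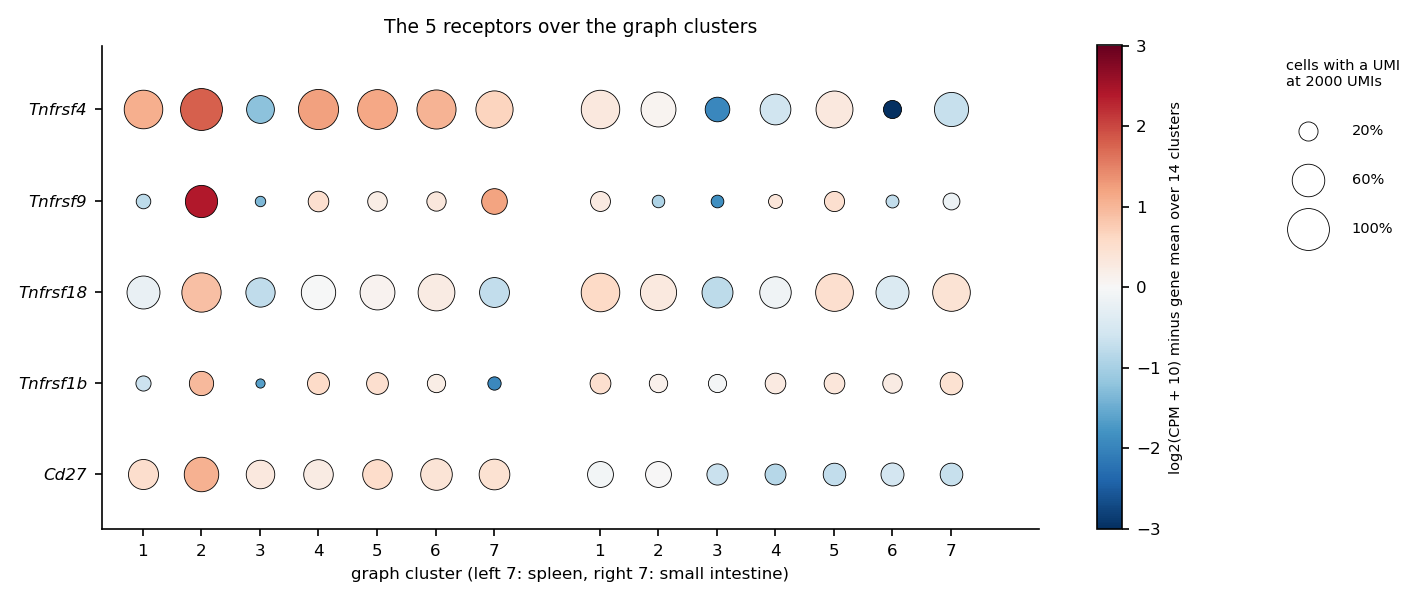
The 5 receptors (rows) over 7 splenic (left) and 7 intestinal (right) graph clusters, with colour for log2(CPM + 10) minus the gene's mean over the 14 clusters and circle area for the share of cells with a UMI at 2000 UMIs. Tnfrsf4 is red over all splenic clusters except cluster 3 (511 CPM) and darkest blue in intestinal cluster 6 (120 CPM).

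A rule that names the genes most alike to each receptor over the 14 cluster levels (Pearson r of log2(CPM + 10) over 6663 genes, clusters being parts of 2 libraries and no replicates) gave Trp53 (r = 0.949), Cd2 (0.930) and Cers2 (0.916) for Tnfrsf4. For Tnfrsf9 it gave Ap1ar (0.859), Faim (0.857) and Ddx49 (0.852), for Tnfrsf18 Sdf4 (0.885), Cr1l (0.878) and Phlpp1 (0.866), for Tnfrsf1b Prdm1 (0.953), Gbp7 (0.938) and Mfsd10 (0.933), and for Cd27 Igtp (0.909), Dgkz (0.908) and Pus3 (0.894). Prdm1 encodes the transcription factor Blimp-1 and Faim an inhibitor of Fas-mediated cell death. Sdf4 lies next to Tnfrsf4 on chromosome 4, upstream of the pair of receptors.

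Within a tissue, the UMIs of Tnfrsf9 were concentrated in few cells. The 10% of cells with the most Tnfrsf9 UMIs held 61.1% of them in spleen and 78.9% in small intestine, against 33.4% and 43.4% for Tnfrsf4, 32.0% and 30.3% for Tnfrsf18, 47.2% and 45.0% for Tnfrsf1b and 30.6% and 41.9% for Cd27. Among positive splenic cells the median was 14 UMIs of Tnfrsf4 (at most 114) and 3 UMIs of Tnfrsf9 (at most 29). In small intestine Tnfrsf9 and Tnfrsf1b had about equal numbers of UMIs, 688 and 671, so that the gap between their shares there goes with no gap in depth.

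Co-detection was counted at 2000 UMIs per cell against the number expected if 2 receptors were independent. Tnfrsf4 and Tnfrsf18 were found together in 855 splenic cells (59.2%) where 789 were expected (ratio 1.08, 1.01 to 1.16) and in 583 intestinal cells (49.8%) where 517 were expected (1.13, 1.04 to 1.22). Tnfrsf9 and Tnfrsf18 were found together in 282 splenic cells where 234 were expected (1.21, 1.07 to 1.35). Of the splenic cells with Tnfrsf9, 92.4% also had Tnfrsf4, against 82.6% of all splenic cells. In small intestine these shares were 74.7% and 61.5%. The ratio of this pair was 1.12 in spleen and 1.22 in small intestine. With the expected number taken within the 3 states it was 1.07 (0.96 to 1.20) and 1.20 (1.0003 to 1.43). Over the 10 pairs in each tissue the ratios taken without regard to state ran from 1.01 to 1.24. The interval left out a ratio of 1 for 3 pairs in each, a number that became 6 in spleen and 1 in small intestine with another random thinning. These intervals treat the count of cells with both as Poisson and the expected number as fixed. With the number of cells of each receptor held fixed the count varies less, so a pair within its interval is not shown to be independent.

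OX40, 4-1BB and GITR were found in 1 cell together in 267 of 1445 splenic cells (18.5%, 16.5% to 20.6%), where 193 were expected, and in 109 of 1170 intestinal cells (9.32%, 7.71% to 11.1%), where 73.4 were expected. Among splenic cells with a Foxp3 UMI the trio was found in 114 of 279 (40.9%, 35.0% to 46.9%), where 102 were expected from the shares within that state. In splenic Ccl5-high and Ccl5-low cells the share was 12.6% and 13.2%, and in intestinal ones 9.57% and 3.88%. The excess of the trio in spleen was thus smaller once cells were compared within states, except in Ccl5-low cells, where 131 cells had all 3 and 88.4 were expected.

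A splenic cell had a UMI of 2.45 of the 5 receptors on average, and 3.12 where Foxp3 was found, 2.54 in Ccl5-high and 2.25 in Ccl5-low cells. An intestinal cell had 2.01, with 2.59, 2.06 and 1.50 in the same states. Both ends of the distribution were fuller than under independence: 59 splenic cells (4.08%) had none of the 5, where 1.69% was expected, and 39 (2.70%) had all 5, where 1.33% was expected. In small intestine 117 cells (10%) had none, against 4.95%, and 12 (1.03%) had all 5, against 0.437%.

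**Figure D5:**
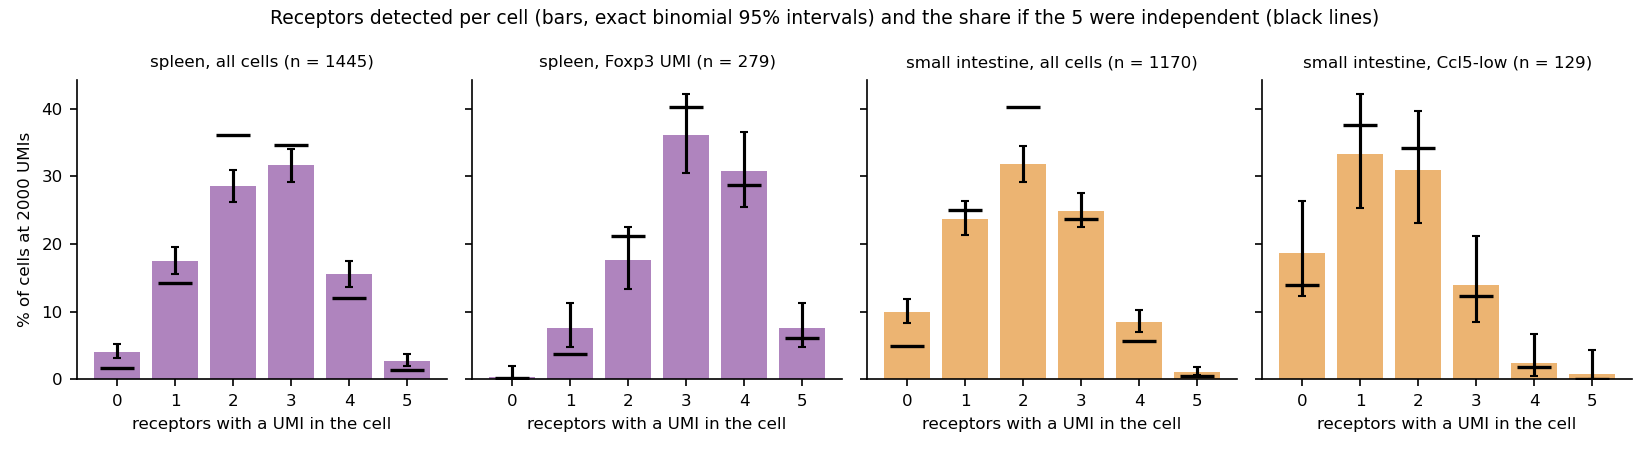
Percent of cells at 2000 UMIs (y axes) by the number of the 5 receptors with a UMI (x axes) in 4 groups of cells, with exact binomial 95% intervals and black lines for the share if the receptors were independent. In all splenic cells 4.08% had 0 receptors and 2.70% all 5, both above the black lines at 1.69% and 1.33%.

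As all cells were sorted by the IL-10 reporter, they were also divided by whether an Il10 UMI was found. Among splenic Ccl5-low cells, 592 had one and 418 had none, and Tnfrsf4 stood at 3015 and 1372 CPM (log2 ratio 1.14, 1.08 to 1.20) and Tnfrsf1b at 120 and 41.7 CPM (1.53, 1.20 to 1.87). Tnfrsf18 had 746 and 469 CPM (0.67) and Tnfrsf9 238 and 160 CPM (0.57), so all 4 were higher where Il10 was detected, and Cd27 by little (0.19). Splenic Ccl5-low cells come from several clusters, which differed in Il10 as well. An Il10 UMI was found in 22.8% of cells of cluster 3 and 42.3% of cluster 7. These clusters had the lowest Tnfrsf4 (511 and 1921 CPM) and Tnfrsf1b (27.1 and 20.5 CPM) of spleen, though cluster 7 was second for Tnfrsf9. The part of the clusters in these ratios was not tested. Among all intestinal cells, of every state, only Tnfrsf4 (1080 and 646 CPM, 0.74, 0.63 to 0.85) and Tnfrsf18 (828 and 716 CPM, 0.21, 0.10 to 0.32) differed beyond counting error. In intestinal Ccl5-low cells, 100 with and 38 without an Il10 UMI, the ratios were 1.11 (0.68 to 1.57) for Tnfrsf4 and 0.89 (0.40 to 1.41) for Tnfrsf18. There the intervals of Tnfrsf9, Tnfrsf1b and Cd27 held 0.

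The direction was the opposite for Tnfrsf9 in 2 splenic groups and for Tnfrsf18 in 1 of them. With an Il10 UMI Tnfrsf9 stood at 502 CPM and without one at 742 CPM among cells with a Foxp3 UMI (-0.56, -0.80 to -0.32), and at 203 and 321 CPM among Ccl5-high cells (-0.66, -1.06 to -0.26). The groups without an Il10 UMI were small, with 37 and 61 cells and 166 and 86 Tnfrsf9 UMIs. The intervals do not cover UMIs gathered in few cells. Tnfrsf18 stood at 768 and 954 CPM among Ccl5-high cells (-0.31, -0.53 to -0.09). Cells with an Il10 UMI were deeper (median 6066.5 against 4460 UMIs over all splenic cells), and the part of depth was not tested.

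By cell cycle phase, Tnfrsf9 stood at 298 CPM in 1414 splenic cells called G1, 212 CPM in 54 called S and 160 CPM in the 180 G2/M cells left out elsewhere, while Tnfrsf4 had 2658, 2614 and 2335 CPM. In small intestine Tnfrsf4 had 992 CPM in G1, 367 CPM in 62 G2/M cells and 81.7 CPM in only 14 S cells.

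The pathway around the receptors was read from lists of genes taken whole. Of 22 other TNF receptor genes, 7 had enough UMIs in the tissue comparison, of which 4 were at least 2-fold higher in spleen and 1 lower (13.6% and 10.4% of all genes; median log2 ratio of the list 1.32, of all genes 0.02). Fas, the death receptor, had 103 CPM in spleen and 14.1 CPM in small intestine (2.87, 2.52 to 3.24), and Tnfrsf25, the receptor DR3, 22.3 and 4.57 CPM (2.29, 1.66 to 2.98). Tnfrsf1a, which encodes TNFR1 and shares its ligand with Tnfrsf1b, was the one lower in spleen, at 8.09 against 19.5 CPM (-1.27, -1.72 to -0.82). The splenic excess of the list was not found in every state. In Ccl5-high cells 1 of 3 genes with enough UMIs was at least 2-fold higher and 0 lower (median -0.03). In Ccl5-low cells 1 of 5 was higher and 1 lower (-0.43), and with a Foxp3 UMI 1 of 2 was higher and 0 lower (1.56). Among Ccl5-low cells Tnfrsf25 had 25.03 CPM in spleen and 33.7 CPM in small intestine, with overlapping intervals. Fas stayed higher in spleen there (125 against 26.6 CPM).

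The ligands of the 5 receptors were almost absent from these cells. Tnfsf18, the GITR ligand, had 0 UMIs in either library, under the floors of 3 UMIs given above, and Cd70 had 1 and 0 UMIs. Of the 6 ligand genes only Tnf and Tnfsf9, the 4-1BB ligand, had enough UMIs, and 1 of the 2 was at least 2-fold lower in spleen (10.4% of all genes): Tnf had 6.56 CPM in spleen and 26.4 CPM in small intestine (-2.01, -2.48 to -1.56) and Tnfsf9 6.56 and 12.7 CPM (-0.96, -1.49 to -0.42).

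Among 18 adaptors and kinases 1 was at least 2-fold higher in spleen (Traip, on 67 UMIs in all) and 1 lower (Birc2, encoding cIAP1, 37.0 against 115 CPM, -1.64). Of all genes 13.6% were higher and 10.4% lower by that much. Traf1, an adaptor that 4-1BB recruits, had 165 and 320 CPM (-0.96, -1.06 to -0.85). Among 15 NF-kB subunits and feedback genes 0 were higher and 2 lower, a share near the 10.4% of all genes: Tnfaip3, which encodes the feedback inhibitor A20, had 43.6 CPM in spleen and 406 CPM in small intestine (-3.22, -3.38 to -3.06), and Nfkbiz 47.5 and 222 CPM (-2.22, -2.39 to -2.06). Nfkbia, which encodes IkB-alpha, had 548 and 1048 CPM (-0.94). In these values, too, tissue and handling of the cells cannot be told apart. Other NF-kB genes were higher in spleen by less, among them Relb (70.0 against 44.7 CPM, 0.65) and Nfkbib (89.1 against 60.8 CPM, 0.55), both named after their values were seen, and the list medians were -0.08 for adaptors and -0.02 for NF-kB genes.

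With Foxp3 in spleen, 0 of 18 adaptors were at least 2-fold higher and 1 was lower (Map3k14, encoding the kinase NIK, -1.04), 0 of 15 NF-kB genes differed by that much, and of 6 other receptors with enough UMIs 1 was lower (Tnfrsf26, -2.10), with Fas at 61.1 against 118 CPM (-0.95), where 1.47% of all genes were higher and 2.53% lower by that much. Between intestinal Ccl5-high and Ccl5-low cells 2 of 17 adaptors were at least 2-fold higher, Traf5 (1.18) and Traf1 (344 against 170 CPM, 1.02), and 1 of 15 NF-kB genes was lower (Nfkbid, -1.04), as was Fas among 3 other receptors (-1.06), where 5% of all genes were higher and 5.82% lower by that much. The corresponding splenic comparison had 0 of 17 adaptors and 0 of 15 NF-kB genes past 2-fold in either direction. Of 6 other receptors with enough UMIs, 0 were higher and 1 was lower by that much there. Among all genes 2.42% were higher and 4.27% lower, so few or none would be past 2-fold in lists of this size.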

How the data were processed

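The authors trimmed reads with Trimmomatic, aligned them to mm10 and made UMI counts per gene and cell barcode with Cell Ranger (versions and the strand setting not given in the sources used here), and deposited these counts without normalization and without their filters on cells and genes.

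Quality filters (log UMIs and log genes no lower, and mitochondrial share no higher, than 3 MAD from their medians) removed 90 of 1738 splenic and 135 of 1474 intestinal barcodes, and cyclone (scran 1.30.0, 1000 iterations) called another 180 and 62 cells as G2/M, which were left out. Clusters are Louvain communities of a graph of shared nearest neighbours (bluster 1.12.0, 20 principal components, 10 neighbours). No doublet caller was run; cells of very high UMIs were left out as an alternative. Poisson intervals of levels, binomial intervals of shares and of UMI ratios are exact (95%; scipy 1.17.1, Python 3.11.15, R 4.3.3). Only the intervals of UMI ratios were checked on simulated data. Those data were Poisson counts, the model that the intervals assume, so the check does not cover UMIs gathered in few cells. Backgrounds count genes with at least 50 UMIs in a comparison that differed 2-fold. Named besides the receptors were up to 4 genes of a list with the largest log2 ratios, the 3 leading genes of a cluster and the 3 genes with the highest r to a receptor; Tnfrsf1a, Tnfsf18 and Cd70 were named after their values were seen. The receptors, gene lists, classes and comparisons were chosen with earlier results of these data known. Alternatives were all barcodes, G2/M cells kept, other scalings, thinning, other Ccl5 and Foxp3 cuts and CD8 cells left out.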

Additional observations from a re-analysis of the deposited data

Results flagged for a closer look

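Tnfrsf4 was looked at again because its difference between Ccl5-high and Ccl5-low cells had opposite directions in the tissues. The log2 ratio was -0.14 in spleen (2203 against 2425 CPM) and 0.32 in small intestine (991 against 793 CPM). The splenic ratio was 0.0207 with pooled size factors and between -0.0387 and -0.00337 with every cell weighted the same, at 2000 UMIs per cell or with the Ccl5 cut at 500 CPM, so that the opposite directions depend on the setting. Each tissue had 1 library, and the difference between the ratios was not tested.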

How the results depend on the processing

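No paired analysis was possible because each tissue had 1 library. Of 231 values under an alternative setting, 178 stayed within the interval of the value reported (counts of pairs: within 1.5 times) and 52 moved beyond it, and among ratios whose interval left out 0, 1 changed sign, Tnfrsf4 of Ccl5-high over Ccl5-low splenic cells, which was 0.0207 with pooled size factors. Ratios whose interval held 0 (Tnfrsf9 of both tissues and splenic Cd27, Ccl5-high over Ccl5-low) also crossed it, by the most to -0.67 for intestinal Tnfrsf9 with cells of a Foxp3 UMI kept. Of 60 ratios of receptor pairs found together, 60 stayed within their intervals. The causes were not tested. All values below are log2 ratios.

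For spleen over small intestine, Tnfrsf4 was 1.52 with all barcodes, 1.33 with pooled size factors, 1.39 with every cell weighted the same and also at 2000 UMIs per cell, and 1.27 without cells that had both CD8 genes. Tnfrsf18 was -0.00689 with all barcodes, -0.0104 at 2000 UMIs and -0.18 without CD8 cells, and Tnfrsf1b was -0.26 with size factors. For Foxp3 UMI over none in spleen, Tnfrsf4 was 0.47 (all barcodes), 0.59 (size factors), 0.615 (same weight), 0.62 (2000 UMIs) and 0.58 (at least 2 Foxp3 UMIs). Tnfrsf9 was 1.15 (all barcodes), 1.19 (G2/M cells kept), 1.67 (size factors), 1.69 (same weight), 1.62 (2000 UMIs) and 1.49 (at least 2 Foxp3 UMIs). Tnfrsf18 was 0.65, 0.68 and 0.69 with size factors, same weight and 2000 UMIs, and Cd27 0.28 and 0.33 with same weight and 2000 UMIs. In small intestine, at least 2 Foxp3 UMIs, found in 6 cells, gave 1.55 for Tnfrsf4, 3.12 for Tnfrsf9 and 1.14 for Tnfrsf18. Against Ccl5-low cells alone the values were 0.66 for Tnfrsf4, 0.96 for Tnfrsf18 and 1.63 for Cd27, and Tnfrsf1b was 1.29 at 2000 UMIs.

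For Ccl5-high over Ccl5-low cells of spleen, Tnfrsf4 was -0.0034 with every cell weighted the same, -0.0197 at 2000 UMIs and -0.0387 with the cut at 500 CPM. In small intestine Tnfrsf4 was 0.47 with size factors, 0.53 without CD8 cells, 0.64 and 0.087 with the cut at 500 and 5000 CPM, and 0.66 without cells between 500 and 2000 CPM. Tnfrsf9 was 0.48 at 2000 UMIs, 2.23 with the cut at 500 CPM, 2.21 without the cells in between, and -0.67 with cells of a Foxp3 UMI kept. Tnfrsf18 was 0.76 with size factors, 0.90 at 2000 UMIs, 0.997 with the cut at 500 CPM and 1.04 without the cells in between. Cd27 was 0.39 at 2000 UMIs and 1.15 without the cells in between. Pairs of receptors whose interval left out a ratio of 1 numbered 6 in spleen and 1 in small intestine with another random thinning, in place of 3 and 3.

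The depth limits mainly the 28 intestinal cells with a Foxp3 UMI, the 138 intestinal Ccl5-low cells and the sparse Tnfrsf1b, whose intervals are wide. All intervals leave out the spread between animals and libraries, which 1 library per tissue cannot give. No leave-one-out value exists for the same reason.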
